A study of Mus musculus with 9 samples.

Results

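Gja4, Gja5, Dll4, Hey1, Efnb2, Sox17, Notch1 and Notch4 are 8 genes that mark arterial endothelium, out of 32286 genes counted in the series, and they were followed here in the endothelial cells of 168FARN mammary tumours. Their levels are described in 433 endothelial cells of 58645 cells that passed the quality limits. The members were chosen by name after Gja4 had been seen to be low in the endothelial cells of Kmt2d knockout tumours in these same libraries. The Gja4 values below are therefore a description of what it was selected on, without a test, and the question put to the other 7 genes is whether they were lower together with it. The tumours grew from 168FARN cells, a mouse mammary carcinoma line, injected into the mammary fat pad of female BALB/c mice, and each of the 9 libraries is a 5′ single-cell RNA library of dissociated primary tumour. There were 3 libraries in each of 3 groups: unedited tumours (WT), tumours of cells edited to lose Kmt2c (Kmt2c KO) and tumours of cells edited to lose Kmt2d (Kmt2d KO). All the injected cells, WT included, carried the reporter H2BMc, a histone H2B fused to mCherry. The edits were made in the injected cancer cells, so the vessels come from a host that does not carry them. Library numbers within a group (WT 1, Kmt2d KO 1 and so on) only name libraries.

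Arteries differ from veins and capillaries in their transcription from early development onward. Signalling through the Notch receptors, which the ligand Dll4 activates on neighbouring endothelial cells, turns on transcription factors of the Hey family and the ligand ephrin-B2, and SoxF factors such as Sox17 act beside it. The gap junction proteins encoded by Gja4 and Gja5 couple arterial endothelial cells electrically and metabolically, and are among the more restricted markers of mature arterial endothelium. In tumours Dll4 and the Notch receptors are also expressed in sprouting and capillary endothelium, so the members differ in how closely they mark an artery.

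A cell was counted as endothelial when it held transcripts of at least 3 of 8 pan-endothelial genes (Pecam1, Cdh5, Tie1, Egfl7, Ecscr, Ptprb, Mmrn2 and Clec14a) and no transcript of the leukocyte gene Ptprc or of H2BMc. No member gene was used in that gate. It gave 45, 72 and 52 cells in the WT libraries, 52, 40 and 26 in the Kmt2c KO libraries, and 45, 37 and 64 in the Kmt2d KO libraries. The cells held 183796 to 614932 unique transcripts (UMIs) per library, with a median of 3880 to 8353 per cell. They were 3.80%, 3.03% and 5.54% of the cells kept in the WT libraries, against 0.440%, 0.458% and 0.432% in Kmt2c KO and 0.750%, 0.526% and 0.441% in Kmt2d KO. The WT libraries lay above both knockout groups (two-sided exact permutation test, p = 0.1 for each, the smallest that 3 libraries against 3 allow). These shares also depend on the quality limits, since 26.6% to 68.5% of the barcodes in WT libraries exceeded the limit on mitochondrial transcripts. In the knockout libraries 13.0% to 29.5% did.

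The gated cells carried the defining endothelial genes at a summed 5683 to 6552 counts per 1000000 UMIs (CPM) in WT, 4616 to 6023 in Kmt2c KO and 3963 to 5808 in Kmt2d KO. Ptprc, H2BMc and the epithelial keratin gene Krt18 were at 0 in all of them. The epithelial keratin gene Krt8 was not: it lay at 0 to 18.7 CPM in WT, 50.9 to 86.5 in Kmt2c KO and 45.3 to 177 in Kmt2d KO. The summed level of the 6 fibroblast markers ran from 0 to 11.7 CPM in WT, 23.6 to 143 in Kmt2c KO and 19.4 to 74.8 in Kmt2d KO, and that of the 6 lymphatic markers from 64.2 to 112, 191 to 311 and 58.3 to 108. The part of these transcripts in the differences below was not tested, beyond leaving out the cells with a Krt8 transcript. Among the endothelial sums Kmt2d KO 1 resembled the WT libraries most and Kmt2d KO 2 the Kmt2c KO libraries, and the Kmt2d KO libraries were less alike than those of the other groups. In tumour cells the transcripts of the targeted genes were not lower in their own knockout (Kmt2d at 24.7 to 32.3 CPM in Kmt2d KO and 17.5 to 22.1 in WT, Kmt2c at 42.6 to 56.1 in Kmt2c KO and 51.7 to 53.0 in WT), so these counts do not check the labels, and an edit that disrupts the protein need not lower the transcript.

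The promoters of 3 members are shown because they are those of the genes that moved most and least in endothelial cells: Gja4 and Gja5 had the fewest UMIs in Kmt2d KO endothelium, and the level of Notch4 differed least from WT there. Each is the 250 bases before the start used in RefSeq's promoter table (assembly GRCm38.p6, the mm10 build the files name), written 5′ to 3′ on the gene's strand. Capitals mark matches, on either strand, to a SOX core (ACAAT) or a KLF core (CACCC, written as GGGTG where it lies on the opposite strand). The windows are chr4:127314040-127314289 on the minus strand for Gja4, chr3:97032152-97032401 on the plus strand for Gja5 and chr17:34564045-34564294 on the plus strand for Notch4. The Notch4 gene is annotated from 34564286, so the end of its window, including most of the marked SOX core, lies within the annotated gene.
Gja4: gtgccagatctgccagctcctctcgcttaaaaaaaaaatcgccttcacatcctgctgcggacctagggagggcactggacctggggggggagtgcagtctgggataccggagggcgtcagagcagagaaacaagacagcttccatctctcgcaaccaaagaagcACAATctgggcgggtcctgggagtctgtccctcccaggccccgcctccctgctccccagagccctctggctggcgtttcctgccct
Gja5: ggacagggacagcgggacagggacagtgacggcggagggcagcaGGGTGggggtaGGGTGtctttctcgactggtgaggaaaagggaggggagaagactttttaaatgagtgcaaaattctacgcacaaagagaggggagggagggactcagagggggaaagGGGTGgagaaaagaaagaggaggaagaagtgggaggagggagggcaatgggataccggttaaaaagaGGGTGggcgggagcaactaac
Notch4: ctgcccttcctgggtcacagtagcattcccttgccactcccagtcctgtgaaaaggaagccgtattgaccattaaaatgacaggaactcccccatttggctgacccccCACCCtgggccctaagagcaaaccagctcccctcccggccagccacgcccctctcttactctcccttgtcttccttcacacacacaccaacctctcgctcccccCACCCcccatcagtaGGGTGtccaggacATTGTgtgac

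The Gja4 window held 1 SOX core, at positions -86 to -82 from the start, and no KLF core, whereas the Gja5 window held 4 KLF cores and no SOX core. The Notch4 window held 3 KLF cores and 1 SOX core. Across 32851 windows of the same length, 27.7% held the SOX core and 52% the KLF core, so either motif is common. The core of RBPJ, the DNA-binding partner of Notch (TGGGAA, in 21.6% of windows), and the E-box CACGTG (6.02% of windows) matched none of the 6 members that had a window, which besides these are Dll4, Efnb2 and Notch1. Hey1 and Sox17 had no window in the table.

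Gja4 and Gja5 encode the arterial connexins, and fewer UMIs of both were found in Kmt2d KO endothelium than in WT. Gja4 (ENSMUSG00000050234) is at chr4:127311420-127314039. It was found at 177, 58.4 and 165 CPM in the WT libraries, 51.1, 38.2 and 43.5 CPM in Kmt2c KO, and 0, 3.87 and 9.76 CPM in Kmt2d KO. No library overlapped between the groups, although WT 2 lay close to the highest Kmt2c KO library. Those levels stood for 64, 25 and 82 UMIs in WT, 13, 12 and 8 in Kmt2c KO, and 0, 1 and 6 in Kmt2d KO. The 0 in Kmt2d KO 1 allows a level of up to 9.71 CPM, by the limit of 3 counts, which covers counting error only. Over the pooled UMIs Gja4 was 22.4-fold higher in WT than in Kmt2d KO and 3.03-fold higher than in Kmt2c KO. It was 7.41-fold higher in Kmt2c KO than in Kmt2d KO. Gja4 was selected on these values, so its ratios, which pool the libraries of a group, are given without an interval. In the model fitted to all genes its log2 fold change was -4.43 ± 0.55 (SE) for Kmt2d KO against WT and -1.57 ± 0.42 for Kmt2c KO against WT. Gja4 was selected on the contrast of Kmt2d KO with WT, and the contrast of Kmt2c KO shares those WT libraries, so neither is tested. Kmt2d KO 3 held 6 of the 7 UMIs of its group, and without it the log2 fold change was -5.95.

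Fewer cells held Gja4 in Kmt2d KO, and those that did held fewer copies. It was detected in 24.4%, 11.1% and 17.3% of WT endothelial cells, in 11.5%, 7.5% and 15.4% of Kmt2c KO cells and in 0%, 2.70% and 4.69% of Kmt2d KO cells. The means were 17.6% ± 6.67 (SD, n = 3), 11.5% ± 3.94 and 2.46% ± 2.35. WT and Kmt2c KO overlapped in this share, and neither overlapped Kmt2d KO. A cell with Gja4 held on average 6.11 UMIs in WT but 2.54 in Kmt2c KO and 1.75 in Kmt2d KO. The WT level rested on few cells: 28 of 169 held any, 11 held at least 5 UMIs, and the 3 richest cells held 74 of the 171 UMIs. In macrophages, which should lack the gene, 0 of 769 cells held Gja4, which allows a share of cells with a UMI of up to 0.390%, at a median depth of 1922.5 to 4266 UMIs per library. With each endothelial cell thinned to 1000 UMIs, the mean share with Gja4 was 9.97% in WT against 4.95% in Kmt2c KO and 0% in Kmt2d KO, after leaving out 3, 2 and 1 shallower cells.

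Gja5 (ENSMUSG00000057123, chr3:97032402-97053634) was rarer still. It was found at 41.4, 4.67 and 60.2 CPM in WT, 27.5, 0 and 0 CPM in Kmt2c KO and 0, 3.87 and 0 CPM in Kmt2d KO. WT 2 fell below Kmt2c KO 1, so those groups overlapped, while WT 1 and WT 3 lay above all Kmt2d KO libraries. The WT libraries held 15, 2 and 30 UMIs, the Kmt2c KO libraries 7, 0 and 0, and the Kmt2d KO libraries 0, 1 and 0. WT 2 was under its limit of 3 counts (7.01 CPM), and a 0 in Kmt2d KO 1 allows 9.71 CPM, so WT 2 was not separated from Kmt2d KO at this depth. With 1 UMI in Kmt2d KO the pooled ratio of WT to Kmt2d KO was 43.1. Its 95% counting interval was 7.37 to 1739 and covers counting error only. Gja5 did not reach the count minimum of the model. When that minimum was dropped its log2 fold change was -4.93 ± 0.80 for Kmt2d KO against WT (adjusted p = 2.08e-07) and -1.95 ± 0.58 for Kmt2c KO against WT (adjusted p = 0.0230), by edgeR's quasi-likelihood test with Benjamini-Hochberg adjustment. That fit called 2.21% of 15686 genes for Kmt2d KO and 4.52% for Kmt2c KO. It took the spread between libraries as known from all genes together. Its p-values therefore do not measure the spread of Gja5 between libraries, such as the 15, 2 and 30 UMIs in WT. The share of cells with Gja5 was 4.99 percentage points lower in Kmt2d KO than in WT (exact permutation test, two-sided p = 0.2). The 3 richest WT cells held 30 of the 47 WT UMIs, and 4930573H18Rik overlaps the gene.

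Hey1 (ENSMUSG00000040289, chr3:8663359-8667038), a transcriptional repressor that Notch induces directly, was lower in the endothelium of both knockouts. It was found at 58.0, 65.4 and 68.3 CPM in WT, 19.7, 12.7 and 49.0 CPM in Kmt2c KO and 16.2, 15.5 and 16.3 CPM in Kmt2d KO. All knockout libraries lay below all WT libraries, with Kmt2c KO 3 nearest to them, and the Kmt2d KO libraries lay within 1 CPM of each other. The log2 fold change against WT was -1.97 ± 0.38 (SE) in Kmt2d KO (adjusted p = 0.0215) and -1.36 ± 0.39 in Kmt2c KO (adjusted p = 0.0470), by edgeR's quasi-likelihood test. Of the 5782 genes in this fit, 0.363% were called lower in Kmt2d KO and 2.08% in Kmt2c KO, and 7.82% and 13.5% had every knockout library below every WT library. Hey1 reached the count minimum only through the WT libraries, so a gene of this level could hardly have entered the fit without being higher there, and the Hey1 p-values are to be read with that limit. Hey1 enters the fit without the count minimum whatever its level in WT. Its adjusted p there was 6.42e-05 in Kmt2d KO and 0.0130 in Kmt2c KO. That fit took the spread between libraries as known from all genes together, and its SE for Kmt2d KO was 0.39, no smaller than above. Its p-values therefore do not measure the spread of Hey1 between libraries and do not lift the limit. Hey1 also shares cells with Gja4, since 59 of its 83 WT UMIs lay in the 28 WT cells that held Gja4. Gja4 was selected for being low in Kmt2d KO against these WT libraries. The Hey1 comparisons are therefore not independent of that selection, and a lower Hey1 is partly built in. The share of cells with Hey1 was 15.6%, 19.4% and 23.1% in WT, 9.62%, 7.5% and 11.5% in Kmt2c KO and 6.67%, 10.8% and 9.38% in Kmt2d KO. The Kmt2d KO share was 10.4 percentage points below WT (exact permutation test, two-sided p = 0.1, the smallest possible). It was present in 1 of 769 macrophages.

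The Hey1 calls depended on the cells and libraries included, and were lost in 8 of 21 alternatives for Kmt2d KO (adjusted p up to 0.150) and in 10 of 21 for Kmt2c KO (up to 0.220). With cells holding Krt8 left out, the log2 fold change was -1.63 in Kmt2d KO (adjusted p = 0.150) and -1.04 in Kmt2c KO (adjusted p = 0.126). The Kmt2d KO call was also lost without WT 1, WT 2, WT 3 or Kmt2d KO 3, and over all left-out libraries the log2 fold change ran from -2.04 to -1.91. The Kmt2c KO call was lost without WT 1, WT 2, WT 3, Kmt2c KO 1 or Kmt2c KO 2 and with DESeq2 (adjusted p = 0.181), and over all left-out libraries the log2 fold change ran from -1.94 to -0.98.

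Sox17 (ENSMUSG00000025902, chr1:4490928-4497426), a SoxF transcription factor needed for arterial identity, was lower in Kmt2c KO. Its level was 218, 245 and 255 CPM in WT, 149, 137 and 120 CPM in Kmt2c KO and 181, 128 and 161 CPM in Kmt2d KO. Every knockout library lay below every WT library, and the 2 knockout groups overlapped each other. Sox17 differed by a log2 fold change of -0.80 ± 0.21 (SE) in Kmt2c KO (adjusted p = 0.0346) and -0.60 ± 0.20 in Kmt2d KO (95% interval -1.02 to -0.18, adjusted p = 0.198), by edgeR's quasi-likelihood test. The Kmt2c KO call was lost in 11 of 21 alternatives (adjusted p up to 0.134), among them when any 1 of its 6 libraries was left out, with the log2 fold change at -0.87 to -0.70, and when cells with Krt8 were left out (-0.58, adjusted p = 0.122). Sox17 was held by 60%, 61.1% and 69.2% of WT cells, 48.1%, 45% and 50% of Kmt2c KO cells and 53.3%, 59.5% and 60.9% of Kmt2d KO cells. No macrophage held it.

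**Figure D1:**
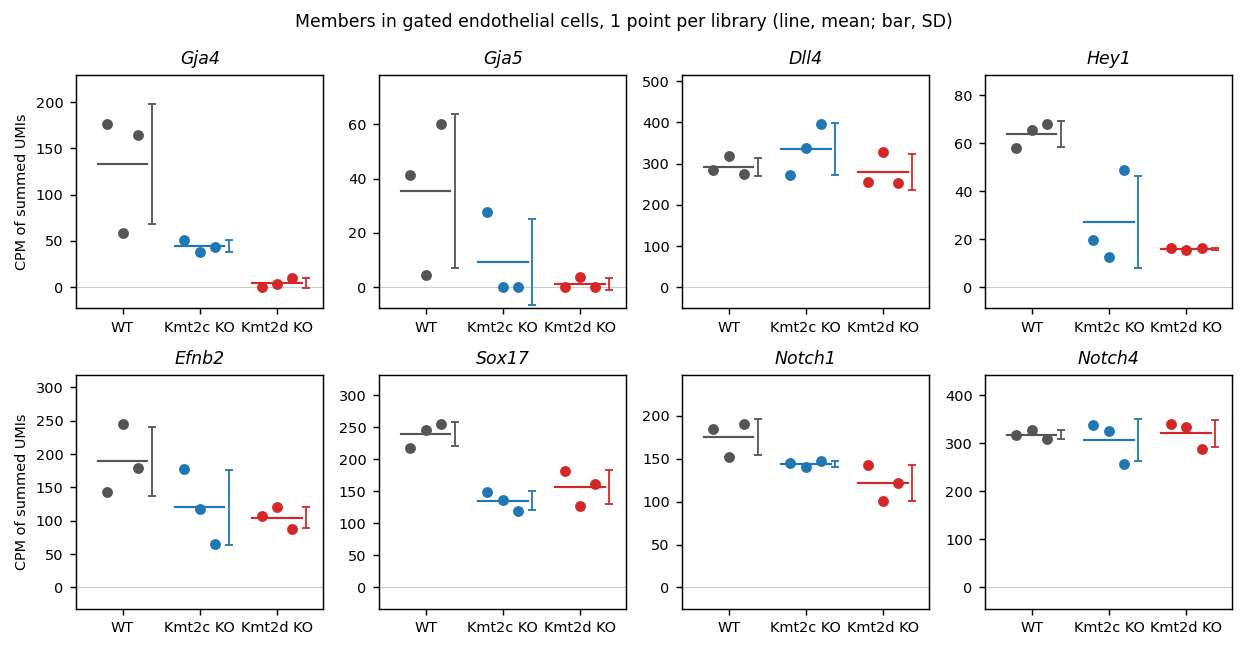
Level of each member in gated endothelial cells. The y axis is CPM of the summed UMIs, each point is 1 library, and the line and bar are the mean and SD of the 3 libraries of WT, Kmt2c KO or Kmt2d KO. Gja4 in Kmt2d KO lies at 0 to 9.76 CPM below every other library, Hey1 and Sox17 lie below WT in both knockouts, and Dll4 and Notch4 overlap in all groups.

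Efnb2 (ENSMUSG00000001300, chr8:8617235-8661242) encodes ephrin-B2, the membrane ligand that marks the arterial side of the artery-vein boundary. Its level was 144, 245 and 179 CPM in WT, 177, 118 and 65.3 CPM in Kmt2c KO and 107, 120 and 87.8 CPM in Kmt2d KO. The Kmt2d KO libraries lay below the WT libraries, whereas Kmt2c KO 1 lay within the WT range. Efnb2 differed by a log2 fold change of -0.87 ± 0.29 (SE) in Kmt2d KO (95% interval -1.49 to -0.26, adjusted p = 0.195) and -0.61 ± 0.30 in Kmt2c KO (adjusted p = 0.276), so neither passed edgeR's quasi-likelihood test at 0.05. Without the count minimum, the Kmt2d KO value was -0.90 and passed (adjusted p = 0.0261). The p-values of that fit take the spread between libraries as known, so they do not measure the spread of Efnb2 between libraries. The share of cells with Efnb2 differed by less than the spread of the WT libraries, at means of 47.5% ± 10.3 (SD, n = 3) in WT against 40.0% ± 5.20 in Kmt2c KO and 42.2% ± 3.27 in Kmt2d KO. A cell with Efnb2 held 3 UMIs on average in WT against 1.96 in Kmt2c KO and 1.93 in Kmt2d KO.

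Of the 2 receptors, Notch1 lay below WT in the knockout libraries and Notch4 did not. Notch1 (ENSMUSG00000026923, chr2:26457902-26503822) was found at 185, 152 and 191 CPM in WT, 145, 140 and 147 CPM in Kmt2c KO and 142, 101 and 122 CPM in Kmt2d KO. Every knockout library lay below every WT library, by a small margin for Kmt2c KO. The log2 fold change was -0.52 ± 0.20 (SE) in Kmt2d KO (adjusted p = 0.309) and -0.27 ± 0.21 in Kmt2c KO (adjusted p = 0.535), and neither passed edgeR's quasi-likelihood test. The genes 0610009E02Rik and Mir6996 overlap Notch1. Notch4 (ENSMUSG00000015468, chr17:34564286-34588543), a receptor found mostly in endothelium, was found at 318, 327 and 309 CPM in WT, 338, 325 and 256 CPM in Kmt2c KO and 340, 333 and 288 CPM in Kmt2d KO. The levels of the groups overlapped. The log2 fold change of Notch4 was 0.01 ± 0.19 (SE) in Kmt2d KO, with a 95% interval of -0.39 to 0.41 (adjusted p = 0.996), and -0.03 ± 0.19 in Kmt2c KO, with an interval of -0.43 to 0.38 (adjusted p = 0.966).

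The ligand Dll4 (ENSMUSG00000027314, chr2:119325784-119335666) did not pass the test in either knockout. Its level was 284, 318 and 275 CPM in WT, 271, 337 and 397 CPM in Kmt2c KO and 256, 329 and 252 CPM in Kmt2d KO. The groups overlapped, and the highest library was Kmt2c KO 3. The log2 fold change of Dll4 was -0.07 ± 0.20 (SE) in Kmt2d KO, with a 95% interval of -0.49 to 0.36 (adjusted p = 0.945), and 0.21 ± 0.20 in Kmt2c KO, with an interval of -0.22 to 0.64 (adjusted p = 0.653). Gm14207 overlaps Dll4.

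**Figure D2:**
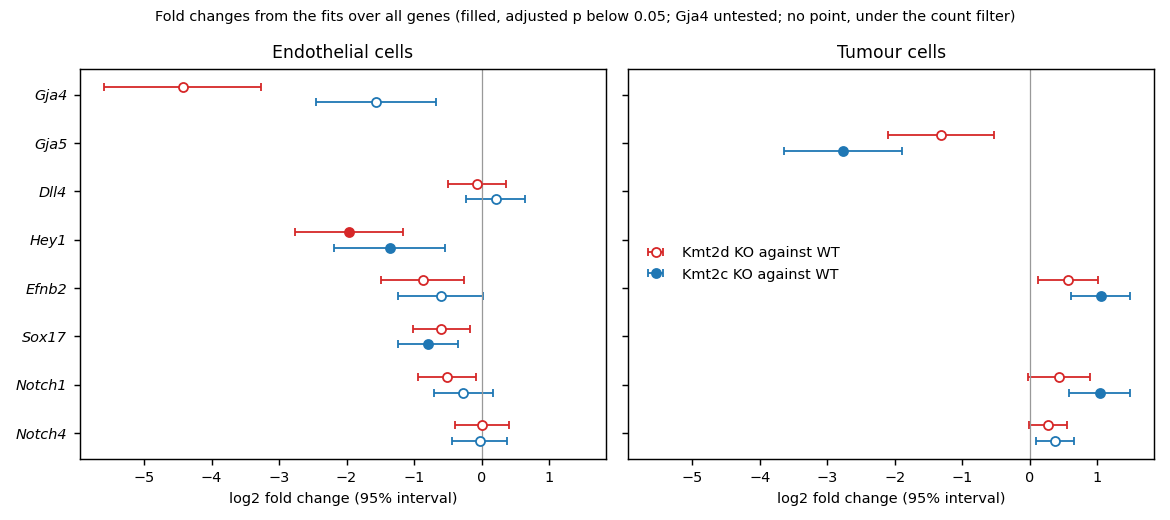
Log2 fold changes of the members against WT with their 95% intervals, in endothelial and in tumour cells, for Kmt2d KO and Kmt2c KO. Filled points have an adjusted p below 0.05 (edgeR), and a gene without a point was under the count minimum. Gja4 is drawn untested, and its interval is not to be read as a test, since it was selected on these values. In endothelial cells Hey1 is filled in both knockouts and Sox17 in Kmt2c KO, and in Kmt2c KO tumour cells Gja5 lies below 0 and Efnb2 and Notch1 above it.

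Of the 7 genes other than Gja4, 1 was called lower in Kmt2d KO (Hey1, which met the count minimum only through WT), 5 entered the fit and were not called (Dll4, Efnb2, Sox17, Notch1 and Notch4), and Gja5 was too scarce to enter it. In Kmt2c KO 2 were called lower, Hey1, with the same limit, and Sox17. These 2 calls were lost in 10 and 11 of 21 alternatives. Over all genes in the fit 0.363% were called lower in Kmt2d KO and 2.08% in Kmt2c KO. No member was called higher, where 0.761% and 4.27% of the genes were. The median log2 fold change over all genes was 0.02 in Kmt2d KO, and 0.0029 in Kmt2c KO. Between the knockouts no gene was called by edgeR (0% of 5782), although 484 had an unadjusted p under 0.05 and DESeq2 called 8. The log2 differences of Kmt2d KO from Kmt2c KO were -0.61 for Hey1 (adjusted p = 0.812), -0.27 for Efnb2 (0.882), -0.27 for Dll4 (0.796), -0.25 for Notch1 (0.831), 0.20 for Sox17 (0.871) and 0.04 for Notch4 (0.980), and -2.86 ± 0.69 for Gja4, which is given without a test. 

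The gate decided how the broadly expressed members read. With at least 2 gate genes in place of 3, 884 cells entered, of which 216 were in WT against 276 in Kmt2c KO and 392 in Kmt2d KO, and Krt8 was at 123 to 255 CPM in WT and 244 to 329 in Kmt2d KO. In those cells edgeR called Dll4 (-1.44, adjusted p = 0.000107) and Notch4 (-1.31, adjusted p = 0.000442) lower in Kmt2d KO as well. So were Efnb2 (-1.70), Sox17 (-1.93) and Notch1 (-1.76). Under this gate 1429 genes were called, against 65 under the main gate. Their share of the genes tested is not given here, so these calls are not read as a result about the members. With at least 4 gate genes, 401 cells remained and Dll4 was at 0.14 and Hey1 at -1.74 (adjusted p = 0.0998). The part of the Krt8 transcripts in the values under the looser gate was not tested.

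**Figure D3:**
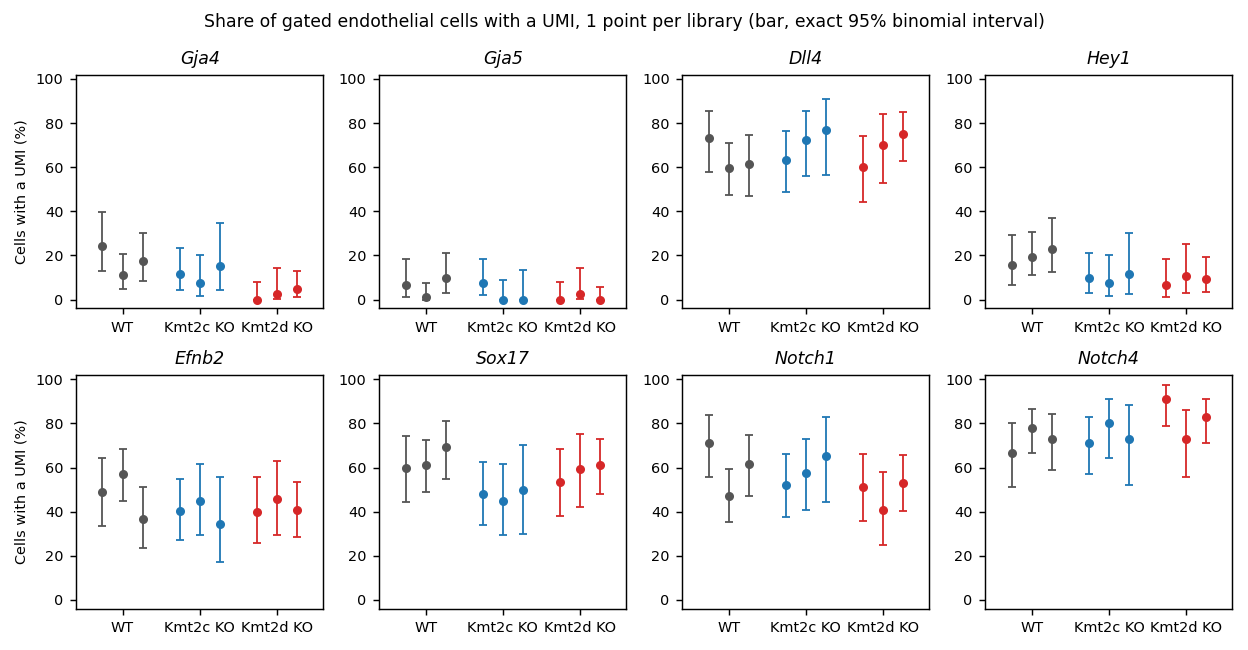
Percent of gated endothelial cells with at least 1 UMI of each member (y axis), 1 point per library with its exact 95% binomial interval, by group. The Gja4 points lie at 11.1% to 24.4% in WT and 0% to 4.69% in Kmt2d KO, while those of Dll4, Efnb2, Notch1 and Notch4 overlap between WT and Kmt2d KO.

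Detection of the members in single cells depends on depth, so the shares were also taken at 1000 UMIs per cell. Notch4 was held by 66.7%, 77.8% and 73.1% of WT cells and by 91.1%, 73.0% and 82.8% of Kmt2d KO cells at full depth, and at 1000 UMIs by a mean of 25.6% in WT against 34.8% in Kmt2c KO and 39.2% in Kmt2d KO. At 1000 UMIs the Notch4 share was 21.6% to 28.6% in the WT libraries and 34.9% to 42.2% in the Kmt2d KO libraries, without overlap, a difference of 13.6 points (exact permutation test, p = 0.1, the smallest possible). Dll4 was held at 1000 UMIs by 22.2%, 29.0% and 25.1%. Hey1 was held by 5.56%, 4.07% and 2.17%, Efnb2 by 20.7%, 13.5% and 10.4%, and Sox17 by 21.4%, 16.6% and 20.5%. Of the 7 shares compared between Kmt2d KO and WT at full depth, only that of Hey1 reached the smallest p that 3 libraries against 3 allow. At 1000 UMIs the Hey1 shares were 2.22%, 8.57% and 5.88% in WT and 2.22%, 2.70% and 1.59% in Kmt2d KO. They stood for only 1, 6 and 3 cells in WT and 1, 1 and 1 in Kmt2d KO. The groups overlapped, with a difference of -3.39 points (exact permutation test, p = 0.3). Notch1 was 11.7 percentage points lower in Kmt2d KO at full depth (exact permutation test, p = 0.3) and 2.10 points higher after thinning.

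The members were found in the same cells to different degrees. Over all 433 endothelial cells, 45 held Gja4. Of those, 13 held Gja5 (28.9%, against 0.258% of cells without Gja4), and 13 of the 14 cells with Gja5 held Gja4. Hey1 was in 27 of the 45 (60%, against 7.73%), whereas Dll4 (75.6% against 66.2%) and Notch4 (84.4% against 76.0%) were nearly as frequent in cells without Gja4. Efnb2 (71.1% against 41.0%), Sox17 (77.8% against 54.9%) and Notch1 (77.8% against 52.1%) lay between. Cells with any 2 of Gja4, Gja5 and Hey1 numbered 21 among WT cells (12.4%), 8 in Kmt2c KO (6.78%) and 3 in Kmt2d KO (2.05%), and all 3 genes together were in 6, 2 and 0 cells. Cells holding at least 6 of the 8 members numbered 25, 7 and 4, while cells with none of them numbered 16, 3 and 9. All these counts include Gja4, which was selected for being low in Kmt2d KO, so a difference there is partly built in. They pool the cells of a group over its libraries and were not tested.

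The WT endothelial cells with Gja4 also had a wider arterial profile. Because Gja4 picked these 28 cells, and because they were deeper (median 7041 UMIs against 5573 in the 141 others), the levels are a description. Hey1 was at 263 CPM in them and 22.6 CPM in the rest, Gja5 at 210 and 0, Efnb2 at 357 and 156, Sox17 at 392 and 210, and Notch1 at 232 and 164. Dll4 (348 and 280 CPM) and Notch4 (388 and 303 CPM) differed least. Of 20 further arterial genes with at least 20 UMIs, 17 were higher in the cells with Gja4, at a median ratio of 1.90, among them the chemokine gene Cxcl12 (544 and 70.5 CPM), the semaphorin gene Sema3g (339 and 47.0 CPM) and the elastic fibre gene Fbln5 (624 and 185 CPM). The flow-responsive transcription factor Klf2 was at 459 and 175 CPM. By contrast 2 of 12 genes of sprouting tip cells were higher, at a median ratio of 0.751, and the peptide gene Apln was at 71.3 CPM in cells with Gja4 and 326 CPM in the rest.

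**Figure D4:**
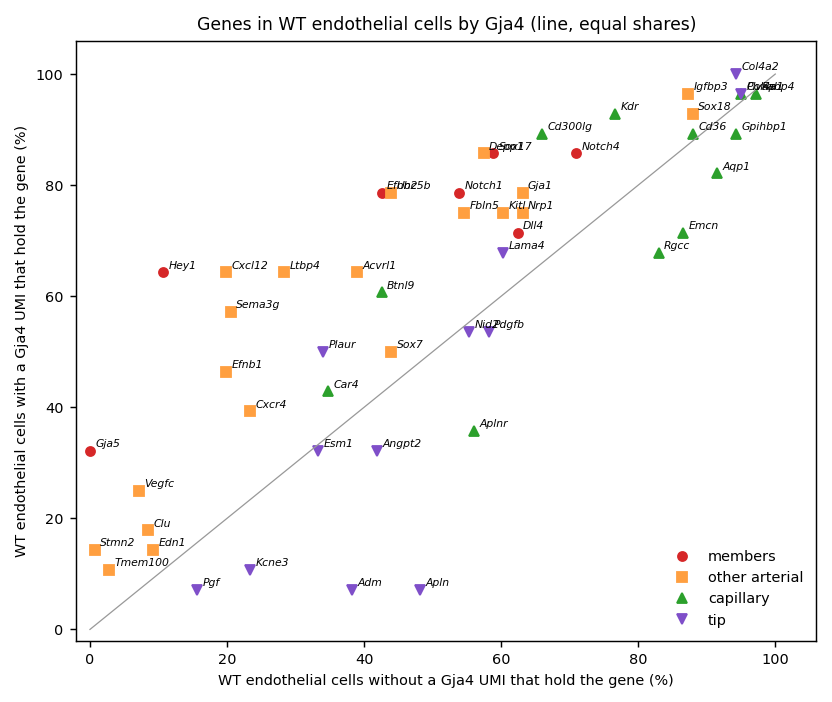
Genes in WT endothelial cells, split by Gja4. The x axis is the percent of the 141 WT cells without a Gja4 UMI that hold a gene, the y axis the percent of the 28 cells with one, and points on the diagonal line have equal shares. Among the members Hey1 lies farthest above the line, Gja5 was in none of the cells without Gja4, and Dll4 and Notch4 lie nearest to the line.

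In the knockouts Hey1 was also higher in the few cells with Gja4. In the 13 such cells of Kmt2c KO Hey1 was at 146 CPM, against 7.54 in the rest, and in the 4 of Kmt2d KO it was at 165 CPM, against 10.5. In Kmt2c KO 10 of 15 further arterial genes were higher in the cells with Gja4, at a median ratio of 1.17. So were 8 of 11 capillary genes (median 1.51), 7 of 8 gate genes (1.25) and 5 of 7 venous genes (1.24). The arterial genes thus did not stand apart in these cells. Of the tip genes 6 of 12 were higher (median 0.960), and of other Notch pathway genes 3 of 10 (0.848). Notch4 was at 269 CPM in the cells with Gja4 and 318 CPM in the rest. The 4 Kmt2d KO cells were deeper than the other Kmt2d KO endothelial cells (median 9812.5 against 5462 UMIs), and in them Efnb2 was at 329 CPM, against 91.2 CPM. Other arterial genes lay on either side in these 4 cells, such as Fbln5 at 400.0 against 65.8 CPM and Ltbp4 at 23.5 against 49.1 CPM, and the capillary gene Aqp1 was also higher, at 3695 against 976 CPM. Pericytes express Gja4 too, and the mural genes were therefore counted in the same cells: at least 2 of 8 were found in 8 of the 28 WT cells with Gja4 and in 40 of the 141 without. Those 8 cells held 44 of the 171 Gja4 UMIs. Mcam, which is among the mural genes, was held by 82.1% of the WT cells with Gja4 and 78.0% of those without. The count of mural genes therefore rests largely on a gene common to these endothelial cells and cannot show their pericyte content. The pericyte gene Rgs5 was at 93.6 CPM in the WT cells with Gja4 and 1.88 CPM in the rest, and at 471 and 7.54 CPM in those of Kmt2c KO. With all cells holding 2 or more mural genes left out, the log2 fold change of Hey1 in Kmt2d KO was -1.92 (adjusted p = 0.0912).

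Outside endothelium the members differed in where they were found. Gja4 was held by 72 of 116 mural cells (62.1%), at 573, 748 and 1079 CPM in WT, 428, 457 and 517 CPM in Kmt2c KO and 425, 647 and 443 CPM in Kmt2d KO. Gja4 was thus present in mural cells of every Kmt2d KO library. All Kmt2c KO libraries lay below all WT libraries. Of the Kmt2d KO libraries only Kmt2d KO 2, with 3 mural cells, lay above the lowest WT library. No test was made, since 8, 3 and 10 mural cells were found in the Kmt2d KO libraries. Dll4, Sox17 and Notch4 were detected in 0 of the 116 mural cells, at a median depth of 2251.5 to 7495 UMIs per library, which allows a share of cells with a UMI of up to 2.59%, whereas Notch1 was in 28 and Gja5 in 1, a cell of Kmt2d KO 3 with 5 UMIs. Among 769 macrophages Dll4, Sox17, Gja4 and Gja5 were in none, and Notch4 was in 11 (1.43%), Efnb2 in 18 (2.34%) and Notch1 in 83 (10.8%).

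**Figure D5:**
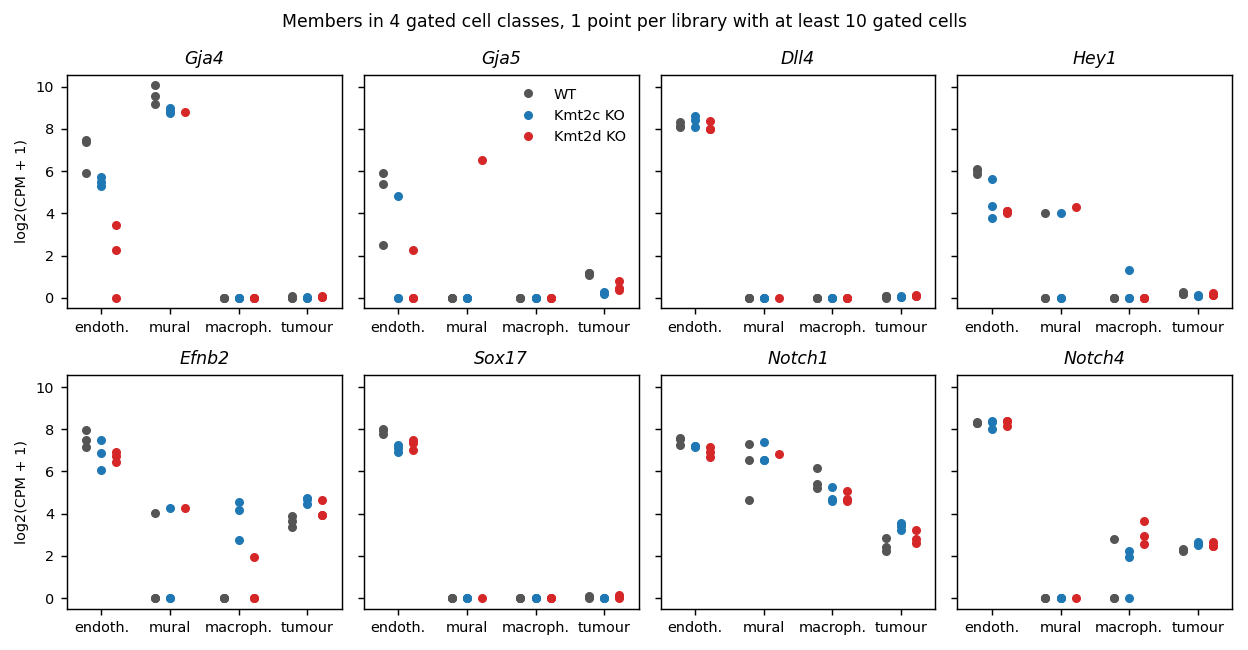
Level of each member in 4 gated cell classes, as log2(CPM + 1) on the y axis, 1 point per library with at least 10 gated cells of the class, by group. Gja4 is higher in the mural than in the endothelial cells of every group, Dll4 and Sox17 are near 0 outside endothelium, and Notch1 is present in all classes.

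In the tumour cells, which carry the edits, 4 members were high enough to be tested. Of 38298 tumour cells 10 held Gja4 (0.0261%), 24 Dll4, 13 Sox17 and 51 Hey1 (0.133%), at a median depth of 8232 to 19358 UMIs per library, and these genes did not reach the count minimum. Gja5 was found at 1.23, 1.24 and 1.09 CPM in WT, 0.167, 0.202 and 0.144 CPM in Kmt2c KO and 0.762, 0.296 and 0.402 CPM in Kmt2d KO. All knockout libraries lay below WT. The log2 fold change of Gja5 was -2.77 ± 0.39 (SE) in Kmt2c KO (adjusted p = 0.00238) and -1.31 ± 0.35 in Kmt2d KO (adjusted p = 0.103), by edgeR's quasi-likelihood test over 15142 genes, of which 6.52% were called lower and 7.08% higher in Kmt2c KO, and 1.02% and 0.806% in Kmt2d KO. The Kmt2d KO value was called by DESeq2 (adjusted p = 0.0468) and without Kmt2d KO 1 (-1.78, adjusted p = 0.0262).

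Efnb2 and Notch1 were higher in Kmt2c KO tumour cells. Efnb2 was found at 14.1, 11.7 and 9.21 CPM in WT, 25.2, 21.3 and 26.0 CPM in Kmt2c KO and 14.6, 24.0 and 14.4 CPM in Kmt2d KO, and Notch1 at 6.17, 3.76 and 4.35, then 8.49, 9.76 and 10.7, then 5.19, 8.32 and 5.90 CPM. For both genes the Kmt2c KO libraries lay above WT, and for Notch1 the Kmt2d KO libraries overlapped WT. The log2 fold changes in Kmt2c KO were 1.05 ± 0.20 (SE) for Efnb2 (adjusted p = 0.0089) and 1.04 ± 0.21 for Notch1 (adjusted p = 0.0109), and in Kmt2d KO 0.57 ± 0.20 (adjusted p = 0.197) and 0.43 ± 0.21 (adjusted p = 0.354), by edgeR's quasi-likelihood test. The Notch1 call was lost without WT 2 (0.88, adjusted p = 0.0551). Notch4 was at 3.76 to 3.99 CPM in WT and 4.70 to 5.42 CPM in Kmt2c KO (a log2 difference of 0.37, adjusted p = 0.0794).

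Beside the members, 24 other arterial genes were listed, of which 16 were tested in endothelial cells. This list and those below were chosen with earlier results of these data known, so counts of called genes within them are a description. Fbln5 and Sema3g, the 2 called in Kmt2d KO, were also higher in the WT cells with Gja4, so they are not independent of its selection. In each knockout 2 of the 16 were called lower and none higher, where 0.363% of all genes tested were called lower in Kmt2d KO and 2.08% in Kmt2c KO. In Kmt2d KO 14 of the 16 values lay below 0, against 47.7% over all genes, at a median log2 fold change of -0.41. In Kmt2c KO 11 of 16 did, against 49.8%, at a median of -0.44. Some gate genes, which mark endothelium in general, were lower too. Clec14a was at 135 to 191 CPM in WT, 73.2 to 120 in Kmt2c KO and 82.9 to 96.7 in Kmt2d KO. Ecscr was at 456 to 488 in WT and 298 to 414 in Kmt2d KO, whereas others, such as Egfl7, overlapped WT in both knockouts. Whether arterial genes fell further than other endothelial genes was not tested. Fbln5, which encodes the elastic fibre protein fibulin-5, was found at 301, 254 and 287 normalised CPM in WT, 94.1, 77.1 and 51.6 in Kmt2c KO and 103, 29.4 and 96.8 in Kmt2d KO. No knockout library reached the WT range. Fbln5 differed by a log2 fold change of -1.80 ± 0.29 (SE) in Kmt2d KO (adjusted p = 0.0158) and -1.88 ± 0.32 in Kmt2c KO (adjusted p = 0.0025). Sema3g, a secreted semaphorin of arterial endothelium, was found at 92.7, 67.1 and 147 normalised CPM in WT and 17.1, 37.8 and 40.5 in Kmt2d KO, without overlap, with a log2 fold change of -1.63 ± 0.38 (adjusted p = 0.0448). In Kmt2c KO it was at 64.2, 24.5 and 51.6 (-1.18 ± 0.39, adjusted p = 0.0872). Efnb1, the ligand ephrin-B1, was lower in Kmt2c KO (-2.45 ± 0.58, adjusted p = 0.0206) and at -0.32 in Kmt2d KO. Efnb1 would not have reached the count minimum without the WT libraries, so the limit given for Hey1 holds for it. Over 21 alternatives the Kmt2c KO call of Fbln5 was kept in all, whereas its Kmt2d KO call was lost in 5 (among them without WT 1, without WT 3 and without Krt8 cells), that of Sema3g in 12 (adjusted p up to 0.283), and that of Efnb1 in 6. The most abundant arterial genes, Igfbp3, Sox18 and Depp1, were not called in either knockout.

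Of 20 other genes of the Notch pathway 9 were tested, and none was called in Kmt2d KO. In Kmt2c KO 1 was called higher, where 4.27% of all genes were: Rbpj, which encodes the DNA-binding partner of the cleaved Notch receptor. It was found at 17.4, 39.8 and 21.9 normalised CPM in WT and at 120, 105 and 57.4 in Kmt2c KO, without overlap, with a log2 fold change of 1.85 ± 0.44 (adjusted p = 0.0203), and it stood at 1.29 in Kmt2d KO (adjusted p = 0.205). The Rbpj call was lost in 6 of 20 alternatives, which were leaving out WT 1, WT 3, Kmt2c KO 1, Kmt2c KO 2 or the cells with most UMIs, and requiring at least 4 gate genes (1.16, adjusted p = 0.261). The protease gene Adam10, the glycosyltransferase gene Mfng and the Notch feedback gene Nrarp were not called. Of 4 genes that respond to blood flow, none was called in Kmt2d KO. Thbd, the anticoagulant receptor thrombomodulin, was called lower in Kmt2c KO (-1.77 ± 0.40, adjusted p = 0.0161), where 2.08% of all genes were. The Thbd call was lost in 4 of 21 alternatives, among them without WT 2, Kmt2c KO 1 or Kmt2c KO 2. Thbd would not have reached the count minimum without the WT libraries, so the limit given for Hey1 holds for it too. Klf2 and Nos3 were not called.

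More genes of other vessel segments were called in Kmt2c KO than in Kmt2d KO, each against the same WT libraries, and so it was over all genes, with 367 called in Kmt2c KO and 65 in Kmt2d KO. None was called between the knockouts. Of 12 capillary genes tested, 6 were called lower in Kmt2c KO, where 2.08% of all genes were, and in Kmt2d KO none was called while 12 of 12 values lay below 0, against 47.7% of all genes, at a median of -0.53. The water channel gene Aqp1 was at -1.91 ± 0.23 in Kmt2c KO (adjusted p = 0.00049) and -0.71 in Kmt2d KO, and the apelin receptor gene Aplnr at -4.34 ± 0.61 (adjusted p = 0.00137) and -0.75. The other 4 were Cd36 (-1.58), Btnl9 (-1.64), Car4 (-2.27) and Fabp4 (-0.98). Of 12 tip genes 4 were called higher in Kmt2c KO, where 4.27% of all genes were. These were Pgf (2.09), Angpt2 (1.42), Apln (1.16) and Plaur (0.85), and none was called in Kmt2d KO, where the median was 0.36. The calls of Aqp1, Aplnr, Cd36 and Pgf were kept in 21 of 21 alternatives, and those of Fabp4, Apln, Plaur, Angpt2, Btnl9 and Car4 were lost in 9, 8, 11, 6, 2 and 1. With at least 2 gate genes Angpt2 was at 0.30 (adjusted p = 0.455) and Apln turned to -0.12 (adjusted p = 0.860). The abundant capillary genes Gpihbp1 and Plvap and the abundant tip genes Col4a1 and Col4a2 were not called in either knockout. None of 7 venous genes tested was called in either knockout. The most abundant were Tmem252 (-0.89 in Kmt2d KO and -0.83 in Kmt2c KO), Lrg1 (-1.26 and -1.05) and Nrp2 (0.11 and -0.0007).

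The genes whose levels followed Gja4 most closely over the 9 libraries were Coasy (Pearson r = 0.92), Hhex (0.91), Sh2b3 (0.90), Ormdl3 (0.90) and Rpl26 (0.85), out of 5775 compared on log2 CPM. Hhex is a homeobox factor of early endothelium and Sh2b3 an adaptor that restrains cytokine signalling, while Coasy and Ormdl3 serve coenzyme A synthesis and sphingolipid control and Rpl26 is a ribosomal protein gene. Of the members Notch1 ranked 12 (0.82), Hey1 38 (0.76), Sox17 438 (0.50), Efnb2 573 (0.45), Dll4 2071 (0.13) and Notch4 3821 (-0.16). The libraries share their groups and their depths in these values, so the ranks are a description only.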

How the data were processed

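The authors deposited whole-number UMI counts of all genes for the 9 libraries in 1 aggregated matrix, made with Cell Ranger 7.0.1 on mm10 per the labels. The sources used here do not give whether the aggregation evened out depth. Cells with over 500 and under 7500 genes and under 15% mitochondrial UMIs were kept. The study compared cells. Here counts were summed per library over gated cells, and genes were tested with edgeR 4.0.16 (TMM, filterByExpr, quasi-likelihood test, R 4.3.3) over all 3 groups, at a Benjamini-Hochberg adjusted p of 0.05, with DESeq2 1.42.0 as an alternative. The edgeR fit was run on counts simulated from its own means and spreads, for genes past the count minimum. Such counts cannot check genes that met the minimum only through WT. CPM are per 1000000 UMIs of the gated cells, and normalised CPM use TMM library sizes. Shares have exact 95% binomial intervals and were compared by exact permutation over libraries. Mural and macrophage cells were gated in the same way on 8 genes each, and tumour cells by the H2BMc and keratin transcripts. No doublet caller was run, and an alternative left out the 5% of cells with most UMIs. Among gated endothelial cells 40 carry a barcode sequence also found in another library, and no sequence occurs in 2 of them.

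The members and the gene lists were chosen with earlier results of these data known. The text names the 8 members, and from each list up to 5 called genes by p and the 3 with the highest CPM, with the 5 genes most like Gja4. Cxcl12 and Ltbp4 were named after their values were seen. Groups follow the genotype letter of the aggregation table, in which X, the control letter of the study's comparisons, was read as WT. The study gives 3 biological replicates per genotype for these libraries, without naming the mice. Whether libraries came from separate mice is taken from the labels' separate samples only, so p-values measure the spread between these libraries. Alternatives were another normalization, no count minimum, other gates, other cell limits and each library left out. Promoters are from RefSeq GRCm38.p6.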

Additional observations from a re-analysis of the deposited data

Results flagged for a closer look

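For Efnb2 all libraries of Kmt2d KO lay below all WT libraries in endothelial cells (log2 fold change -0.87) and above them in tumour cells (0.57). For Notch1 all libraries of Kmt2c KO lay below WT in endothelial cells (-0.27) and above WT in tumour cells (1.04). The difference between the cell classes was not tested for either gene.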

How the results depend on the processing

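For genes called in Kmt2d KO against WT endothelium (65), the count was 346 without the count minimum, 1429 with at least 2 gate genes, 3 with at least 4, 2 without cells holding Krt8, 5 without the cells with most UMIs, and 1 to 138 with a library left out (1 without WT 1, 1 without WT 3, 3 without Kmt2d KO 3, 28 without WT 2, 114 without Kmt2d KO 2 and 138 without Kmt2d KO 1). For Kmt2c KO against WT (367) it was 709 without the minimum, 573 with only these groups in the fit, 1452 with at least 2 gate genes, 226 without cells holding mural genes, and 135 to 567 with a library left out. Between the knockouts (0) it was 8 with DESeq2, 131 without the minimum, 5 without Krt8 cells, 1 without the cells with most UMIs, and 0 to 197 with a library left out (197 without Kmt2d KO 2). In tumour cells it was 722 with DESeq2, 445 without the minimum, 167 with only these groups and 88 to 754 with a library left out for Kmt2d KO (277), and 3193 with only these groups and 812 to 3785 for Kmt2c KO (2059). The causes were not tested.

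Some values changed sign, most of them near 0 but Apln and Angpt2 not. Notch4 in Kmt2d KO was at -0.011 without the minimum, -1.31 with at least 2 gate genes, -0.0073 without mural-gene cells and -0.036 to 0.087 with a library left out. Notch4 in Kmt2c KO was at 0.17 with at least 4 gate genes, 0.29 without Krt8 cells, 0.11 without mural-gene cells, 0.32 without the cells with most UMIs and -0.096 to 0.11. Between the knockouts Notch4 was at -0.16 with at least 2 gate genes, -0.12 without mural-gene cells and -0.095 to 0.11, and Efnb2 at -0.54 to 0.087. Dll4 in Kmt2d KO was at 0.14, 0.24 and 0.22 with at least 4 gate genes, without Krt8 cells and without the cells with most UMIs, and at -0.20 to 0.0027 with a library left out. Dll4 in Kmt2c KO was at -1.04 with at least 2 gate genes, and Notch1 at 0.029 without Krt8 cells and 0.026 without the cells with most UMIs. With at least 2 gate genes Apln was at -0.56 in Kmt2d KO and -0.12 in Kmt2c KO and Angpt2 at -0.41 in Kmt2d KO. Efnb1 in Kmt2d KO was at 0.0025 without mural-gene cells and -0.67 to 0.041 with a library left out. The share with Dll4 differed by -25.6 points and with Notch4 by -23.8 with at least 2 gate genes, and with Notch1 by 2.10 after thinning.

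Of 1360 alternatives to 75 results, 1153 were scored as unchanged. For tested fold changes that meant the same direction and side of the threshold. For counts of genes called it meant a count of similar size, and for the fold changes of Gja4 a shift within the spread of the groups. Many of the 75 results were not called to begin with. Calls were lost more often, such as Sox17 in Kmt2c KO in 11 of 21 alternatives and Sema3g in Kmt2d KO in 12 of 21. No paired analysis was possible because the libraries carry no replicate number shared with the labels. At 26 to 72 endothelial cells per library, a gene of few UMIs such as Gja5 entered the fit only without the count minimum.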
